A study of Mus musculus with 20 samples.

Results

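The 34 genes described here encode the enzymes that place acetyl groups on histones, the enzymes that take them off, and 2 proteins that read them. They were chosen by symbol and function: 2 p300/CBP, 4 GNAT and 5 MYST acetyltransferases, 4 genes for nuclear receptor coactivators and TAF1, 4 class I, 4 class IIa and 3 class IIb and IV deacetylases, 6 sirtuins, and the bromodomain readers Brd2 and Brd3. All 34 were found among the 26099 genes listed in the acute table and the 26486 listed in the survival table, and all 34 passed the filter on low values in both.

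Acetyltransferases move an acetyl group from acetyl-CoA onto lysines of histone tails, which loosens chromatin and creates binding sites for bromodomains. Class I, II and IV deacetylases remove the group with the help of zinc, whereas sirtuins use NAD, and readers of the BET family bind acetylated histones at active promoters and enhancers. ATP-citrate lyase, encoded by Acly, makes the cytosolic and nuclear acetyl-CoA that these transferases use. In the T-cell lineage, Hdac1 and Hdac2 are jointly needed for thymocyte development, and Hdac3 and Hdac7 act while thymocytes mature.

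RNA of leukemic spleens was sequenced from sub-lethally irradiated mice that had received T-cell acute lymphoblastic leukemia (T-ALL) cells with a conditional Acly allele. The acute KO group (4 libraries) received tamoxifen, 3 mg per mouse, once leukemia was overt, and the acute control group (6 libraries) received corn oil alone; spleens were taken 72 h later. The survival KO group (5 libraries) received the same tamoxifen dose 48 h after transplantation, its control group (5 libraries) received corn oil, and both were sampled at the humane endpoint. All 4 groups carried the conditional allele, so tamoxifen itself and the deletion cannot be told apart. The Cre driver, the number of independent leukemias and the ages of the mice are not stated in the sources used here. No sort is named, so a library holds RNA of all cells that passed the filter and red-cell lysis, those of the host included, and p-values measure the spread between these libraries.

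Each library summed to between 19432235 and 20731983 normalized counts in the acute table and between 19998354 and 21623571 in the survival table; the depth in reads is unknown. Acly averaged 5670 ± 766 normalized counts in acute KO spleens and 7735 ± 298 in acute controls (SD, n = 4 and 6), a log2 fold change of -0.46 (SE 0.0747, limma adjusted p = 0.000866). In the survival arm it averaged 3091 ± 712 in KO spleens and 7889 ± 561 in controls (SD, n = 5 each), a log2 fold change of -1.38 (SE 0.131, limma adjusted p = 0.0016). In both arms every KO library lay below every control library. Of the 20 T-cell markers, 17 were lower in acute KO spleens, with summed levels of 167187 to 223688 against 250647 to 260155 in controls. All 14 neutrophil, all 14 monocyte and macrophage and all 12 B-cell markers were higher, and the neutrophil sum reached 180849 to 612169 in KO spleens against 12131 to 49764 in controls. No marker of these 4 lists was at 0 in all libraries. Over all genes tested in the acute arm, 14.7% were called lower and 16.7% higher (adjusted p under 0.05). Called higher in the other lists were 4 of 6 plasma-cell, 8 of 9 NK and cytotoxic and 3 of 6 dendritic markers tested. So were 2 of 5 megakaryocyte, 1 of 7 stroma and endothelium and 0 of 10 erythroid markers tested, and none of these lists had a marker called lower. An other-cell score, the mean centred log2 level of 69 markers of myeloid, B, plasma, NK, dendritic and megakaryocyte cells, ran between 0.640 and 1.85 in acute KO libraries and between -1.16 and -0.309 in acute controls, with KO 2 and KO 3 highest. In the survival arm no marker of any of the 10 lists was called.

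Promoter windows from RefSeq (build GRCm38.p6), running from 250 bases before to 50 after a gene's start, were held for 27 of the 34 genes. The 250 bases before the start are shown for 3 genes on which the acute results turn: Ep300 for the enzyme that was higher in KO spleens, Hdac2 for the class I deacetylases and Hdac11 for the widest fold change. They lie on the plus strand at chr15:81585964-81586213, chr10:36974294-36974543 and chr6:91156565-91156814. Capitals mark the GC box GGGCGG or its complement CCGCCC, and the CCAAT box or its complement ATTGG.
Ep300: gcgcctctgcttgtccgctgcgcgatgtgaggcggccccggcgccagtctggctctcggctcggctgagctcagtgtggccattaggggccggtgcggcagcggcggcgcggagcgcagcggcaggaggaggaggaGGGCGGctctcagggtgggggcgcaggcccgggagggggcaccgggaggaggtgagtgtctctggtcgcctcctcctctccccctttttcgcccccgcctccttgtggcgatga
Hdac2: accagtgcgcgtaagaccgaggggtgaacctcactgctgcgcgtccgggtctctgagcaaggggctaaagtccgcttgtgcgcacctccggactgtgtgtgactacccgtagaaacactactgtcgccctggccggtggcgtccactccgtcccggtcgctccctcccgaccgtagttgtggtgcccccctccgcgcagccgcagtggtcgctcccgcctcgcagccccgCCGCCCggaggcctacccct
Hdac11: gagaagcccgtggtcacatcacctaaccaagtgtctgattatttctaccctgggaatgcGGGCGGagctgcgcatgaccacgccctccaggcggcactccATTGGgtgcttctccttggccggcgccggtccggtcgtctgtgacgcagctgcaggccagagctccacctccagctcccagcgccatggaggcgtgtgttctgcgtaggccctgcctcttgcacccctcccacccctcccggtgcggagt
All 3 windows are rich in G and C, at 73.2% in Ep300, 68.8% in Hdac2 and 65.2% in Hdac11. On either strand, the GC box was present in 25 of the 39 windows of these genes (64.1%), against 35.7% of all 32851 windows. The CCAAT box was present in 15 of the 39 (38.5%), against 37.4% of all windows. The E-box CACGTG was found in 4 (10.3%, against 7.2% of all) and the ETS motif CCGGAAGT in 7 (17.9%, against 3.9%). These matches are letters in a window and not measured binding sites.

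In the acute arm, 72 h after tamoxifen, 11 of the 34 genes were called at an adjusted p under 0.05 (limma on log2 of the normalized count plus 1), or 32.4%. This share is near the background, since 31.4% of the 16363 genes tested were called. Ep300 and Ncoa3 were higher in KO spleens (5.88% of the 34, against 16.7% of all genes called higher). Lower in KO spleens were Hdac11, Sirt5, Hdac8, Kat8, Hdac2, Hdac7, Elp3, Hdac1 and Hdac3 (26.5% of the 34, against 14.7% of all genes called lower). The median log2 fold change of the 34 was -0.04, beside -0.02 over all genes tested. At an unadjusted p under 0.05 there were 12 of the 34 genes, Hdac10 added to the 11, beside 41.6% of all genes. Groups did not overlap for 9 of the 34 genes, beside 22.7% of all genes (12.7% with KO above and 9.94% with KO below). In a bulk sample, fewer cells of a type and less RNA per cell cannot be told apart.

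How many of these calls stood depended on the scaling, the covariate and the libraries kept. When each library was scaled to its summed T-cell receptor beta genes, which were lower in acute KO libraries by -0.37 on the log2 scale, the median of all genes moved to 0.34, and 18 of the 34 genes were called higher and 0 lower (all genes, 43.1% called, 42.5% higher and 0.593% lower). That scaling applies 1 factor to all genes of a library, so distances from the median cannot change much: Ep300 stood at 0.58 from it in both scalings, and Hdac11 at -0.77. Quantile normalization, which does not move all genes alike, put the median of all genes at -0.14, Ep300 at 0.66 from it and Hdac11 at -0.94, with 2 of the 34 genes called higher and 10 lower (all genes, 14.2% higher and 25.3% lower). With the other-cell score as a covariate no gene of the 16363 was called, Acly included. All acute KO libraries had higher scores than all acute controls, so this fit cannot tell genotype from the score. Without KO 2 and KO 3, the 2 libraries with the highest score, Ep300 was still called higher, and Hdac11, Sirt5, Hdac8, Kat8, Hdac2 and Elp3 were still called lower (all genes, 13.1% called, 8.64% higher and 4.42% lower). The part that other cell types play in these results was not tested further.

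**Figure D1:**
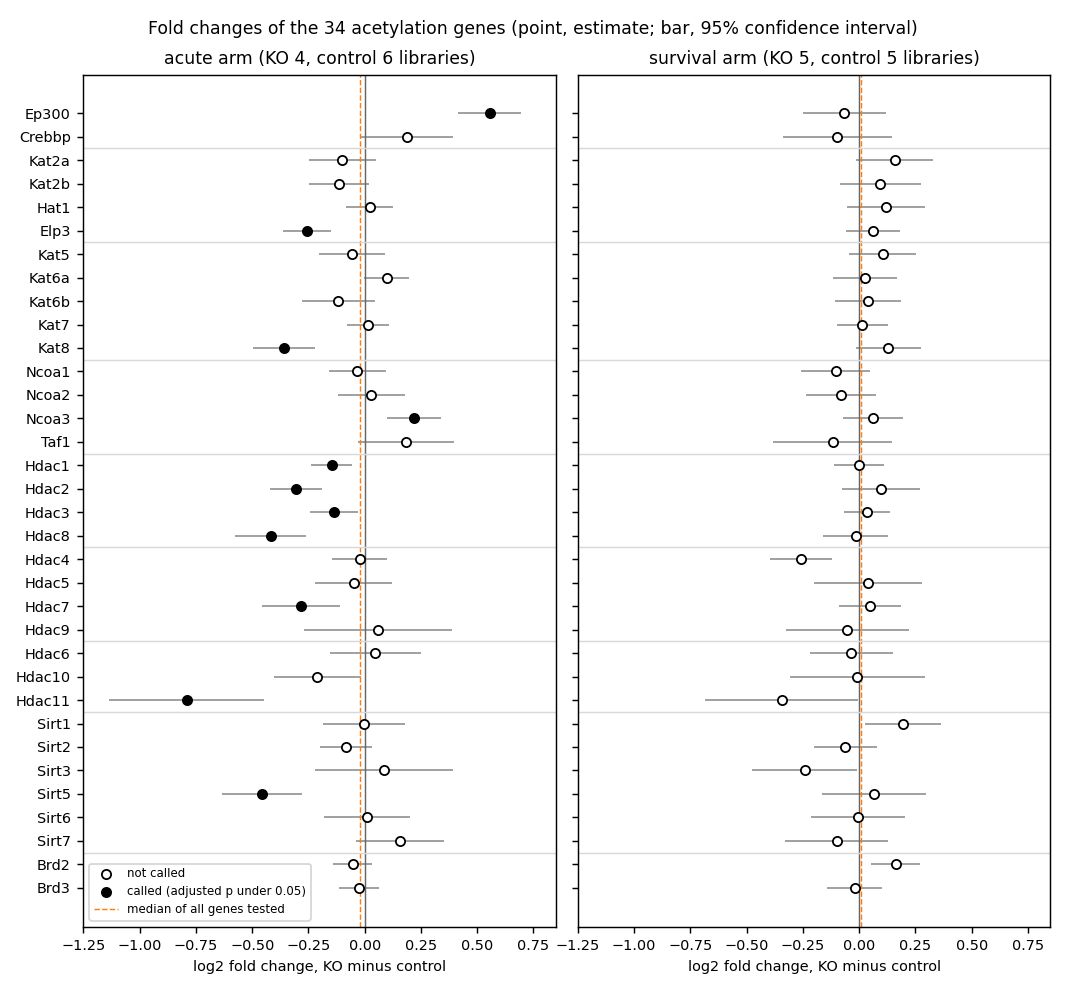
Log2 fold change (KO minus control) of each of the 34 genes in the acute and the survival arm, in the order of their classes; points are limma estimates, bars 95% confidence intervals, filled points passed an adjusted p under 0.05, and the dashed line is the median of all genes. In the acute arm 11 points are filled, 2 above 0 and 9 below it under the deposited scaling, and in the survival arm none is filled.

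Ep300 and Crebbp encode p300 and CBP, the paired coactivators that acetylate histone H3 at enhancers. Ep300 was 1.47-fold higher in acute KO spleens and was the gene of the 34 with the lowest adjusted p. It had 2757, 3105, 3378 and 2947 in the 4 KO libraries, against a median of 2058 (1925 to 2226) in the 6 control libraries (normalized counts). Every KO library lay above every control library, and the log2 fold change was 0.56 (SE 0.0641, adjusted p = 8.85e-05). The change ranged between 0.50 and 0.60 when libraries were left out in turn. Without KO 2 and KO 3 it was 0.46 (adjusted p = 0.00146). With the other-cell score as a covariate the call ended, at 0.32 (adjusted p = 0.823).

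Crebbp, the close relative of Ep300, had 1758, 1628, 2134 and 1920.5 in the 4 KO libraries, against a median of 1611 (1419.6 to 1972) in the 6 control libraries. Those ranges overlapped, and the log2 fold change of 0.19 (SE 0.0943, adjusted p = 0.157) did not pass. Without control 1, which had the highest control level, Crebbp passed at 0.24 (adjusted p = 0.043). Survival libraries had Ep300 levels of 2834, 2366, 2647, 2189 and 2549.6 in the KO libraries, against 2457, 2509, 2336, 2932 and 2953 in the control libraries. These groups overlapped widely, and the log2 fold change was -0.07 (SE 0.0852, adjusted p = 0.843), with a 95% interval of -0.25 to 0.12 that lies below the acute estimate. Crebbp had 2204, 1990.3, 1918, 1677 and 2209 in the KO libraries, against 1856, 1974, 1839, 2395 and 2701 in the control libraries in the survival arm. Its groups also overlapped, with a log2 fold change of -0.10 (SE 0.112, adjusted p = 0.825).

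Ncoa3, a coactivator of nuclear receptors, was the other gene that was higher in acute KO spleens. It had 1962, 2129, 2305 and 2028 in the 4 KO libraries, against a median of 1821 (1694 to 1895) in the 6 control libraries. The groups did not overlap, and the log2 fold change was 0.22 (SE 0.0547, adjusted p = 0.00982). The call ended without KO 2 and KO 3, at 0.14 (adjusted p = 0.137). Survival levels of Ncoa3 were 2196, 2139, 2013, 1859 and 2221 in the KO libraries, against 2049.8, 1924, 1862, 2073 and 2073 in the control libraries. The survival groups overlapped, with a log2 fold change of 0.06 (SE 0.062, adjusted p = 0.8). The related coactivators Ncoa1 and Ncoa2 were not called, with acute log2 fold changes of -0.03 and 0.03 and survival ones of -0.10 and -0.08. Taf1, the largest subunit of the general factor TFIID, was at 0.18 (adjusted p = 0.182) in the acute arm and -0.12 (adjusted p = 0.805) in the survival arm, neither called.

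Among the GNAT acetyltransferases, Elp3, the catalytic subunit of Elongator, was called lower in acute KO spleens under the deposited scaling and was at 0.11, not called, with T-cell receptor beta scaling. It had 2184, 1956, 1965 and 1935 in the 4 KO libraries, against a median of 2421 (2229.7 to 2479) in the 6 control libraries. KO 1 lay above the other 3 KO libraries but still below all controls, and the log2 fold change was -0.26 (SE 0.0492, adjusted p = 0.00216). For Elp3 the survival levels were 2534, 2536, 2321, 2513 and 2203 in the KO libraries, against 2427, 2304, 2233, 2238 and 2387 in the control libraries. Those groups overlapped, with a log2 fold change of 0.06 (SE 0.0564, adjusted p = 0.777).

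Kat2a, the GCN5 subunit of the SAGA and ATAC complexes, had 2174, 1855, 2148 and 1749.7 in the 4 KO libraries, against a median of 2091 (2000.1 to 2264) in the 6 control libraries in the acute arm. KO 2 and KO 4 lay below all controls while KO 1 and KO 3 lay among them, and the log2 fold change was -0.10 (SE 0.0679, adjusted p = 0.301). Its survival levels were 2346, 2408, 2048, 2118 and 2275 in the KO libraries, against 2233, 1830.0, 1927, 1795 and 2280.0 in the control libraries. The groups overlapped, with a log2 fold change of 0.16 (SE 0.079, adjusted p = 0.603). Kat2b, the PCAF relative of Kat2a, was at -0.11 (adjusted p = 0.188) in the acute arm and 0.09 (adjusted p = 0.767) in the survival arm. Hat1, which acetylates newly made histone H4, was at 0.02 (adjusted p = 0.787) and 0.12 (adjusted p = 0.695) in the acute and the survival arm. Of the 31-base words of Kat2b transcripts, 14.6% are shared with the pseudogene Kat2b-ps, the largest such share among the 4 GNAT genes. The level of Kat2b-ps was not analysed here, so the Kat2b counts may hold reads of another locus.

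Of the 5 MYST acetyltransferases, Kat8, the MOF enzyme that acetylates a lysine in the tail of histone H4, was called, lower in acute KO spleens under the deposited scaling and at 0.0081, not called, with T-cell receptor beta scaling. It had 514, 441, 458 and 467 in the 4 KO libraries, against a median of 604 (566 to 639.8) in the 6 control libraries. The groups did not overlap, and the log2 fold change was -0.36 (SE 0.063, adjusted p = 0.00131). At the humane endpoint Kat8 had 622, 614, 587, 567 and 592 in the KO libraries, against 568, 542, 558, 493 and 568 in the control libraries. KO levels were on the high side of overlapping ranges, and the log2 fold change of 0.13 (SE 0.0665, adjusted p = 0.619) did not pass. Of the words of Kat8 transcripts 9.06% are shared with other genes on the same strand and 7.1% with genes on the opposite strand. The other members were not called in either arm. Kat5, the TIP60 enzyme of the NuA4 complex, was at -0.06 in the acute and 0.11 in the survival arm, and Kat7, the HBO1 enzyme that acts at replication origins, was at 0.01 and 0.01. Kat6a and Kat6b, the MOZ and MORF enzymes of blood and neural stem cells, were at 0.10 (adjusted p = 0.138) and -0.12 (adjusted p = 0.264) in the acute arm, and at 0.03 and 0.04 in the survival arm. Kat6a passed without KO 2, at 0.14 (adjusted p = 0.038).

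Hdac1, Hdac2 and Hdac3 are nuclear enzymes at the core of the Sin3, NuRD, CoREST and NCoR complexes, and Hdac8 is the remaining class I deacetylase. All 4 class I deacetylases were called lower in acute KO spleens under the deposited scaling. With T-cell receptor beta scaling Hdac1 (0.22), Hdac2 (0.062) and Hdac3 (0.23) turned positive and Hdac8 stayed at -0.051. Relative to the median of all genes, the 4 stood between -0.11 and -0.40 in the deposited scaling. After quantile normalization Hdac2 (-0.19) and Hdac8 (-0.40) stood below that median, while Hdac1 (0.0073) and Hdac3 (-0.031) lay close to it. Among all genes 14.7% were called lower. Hdac2 had 3425, 2997, 3249.8 and 3319 in the 4 KO libraries, against a median of 4049 (3647 to 4224) in the 6 control libraries. The groups did not overlap, and the log2 fold change was -0.31 (SE 0.0526, adjusted p = 0.00115). Hdac8 had 426, 356, 366 and 439 in the 4 KO libraries, against a median of 529 (518 to 542) in the 6 control libraries. Its 6 controls were close together, all 4 KO libraries lay below them, and the log2 fold change was -0.42 (SE 0.0722, adjusted p = 0.00118), 0.748-fold.

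Hdac1 and Hdac3 changed less. Hdac1 had 7603, 6985, 7321 and 7289 in the 4 KO libraries, against a median of 8097 (7582 to 8426) in the 6 control libraries. KO 1 lay just above the lowest control, and the log2 fold change of -0.15 (SE 0.0426, adjusted p = 0.0203) was called. Without KO 2 it was not, at -0.13 (adjusted p = 0.065), nor without KO 2 and KO 3, at -0.12 (adjusted p = 0.177). Of the 31-base words of Hdac1 transcripts 40.0% are shared with other genes on the same strand, 34.8% with Gm10093, whose level was not analysed here, so the Hdac1 counts may hold reads of another locus. Hdac3, the enzyme of the NCoR and SMRT corepressors, had 2064, 1824, 1797 and 1790.0 in the 4 KO libraries, against a median of 2052 (2001 to 2100.2) in the 6 control libraries. KO 1 lay among the controls and the other 3 KO libraries below them. Its log2 fold change of -0.14 (SE 0.0483, adjusted p = 0.0491) sat at the threshold, and it was called in 1 of 10 fits that each left out 1 library, the one without KO 1 (-0.19).

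At the endpoint no class I gene was called. Hdac1 had 8242, 7578, 7658, 8088 and 7737 in the KO libraries, against 8204, 7580.1, 7816, 7399 and 8352 in the control libraries. Hdac2 had 4218, 3934, 3785, 3848 and 3692 in the KO libraries, against 4276, 3303, 4028, 3162 and 3542 in the control libraries. The groups overlapped for both, with log2 fold changes of -0.00 (SE 0.0513, adjusted p = 1) and 0.10 (SE 0.0809, adjusted p = 0.758). Hdac3 had 2218, 2223, 2133, 2236 and 2118 in the KO libraries, against 2135, 2154, 2141, 2015 and 2228 in the control libraries. Hdac8 had 509.9, 513, 513, 564 and 548 in the KO libraries, against 513, 569, 506, 530.1 and 559 in the control libraries. These groups overlapped too, with 0.03 (SE 0.0481, adjusted p = 0.858) for Hdac3 and -0.02 (SE 0.0675, adjusted p = 0.966) for Hdac8. The 95% interval of Hdac8, -0.16 to 0.13, lies above its acute estimate, and so does that of Hdac2, -0.08 to 0.27.

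**Figure D2:**
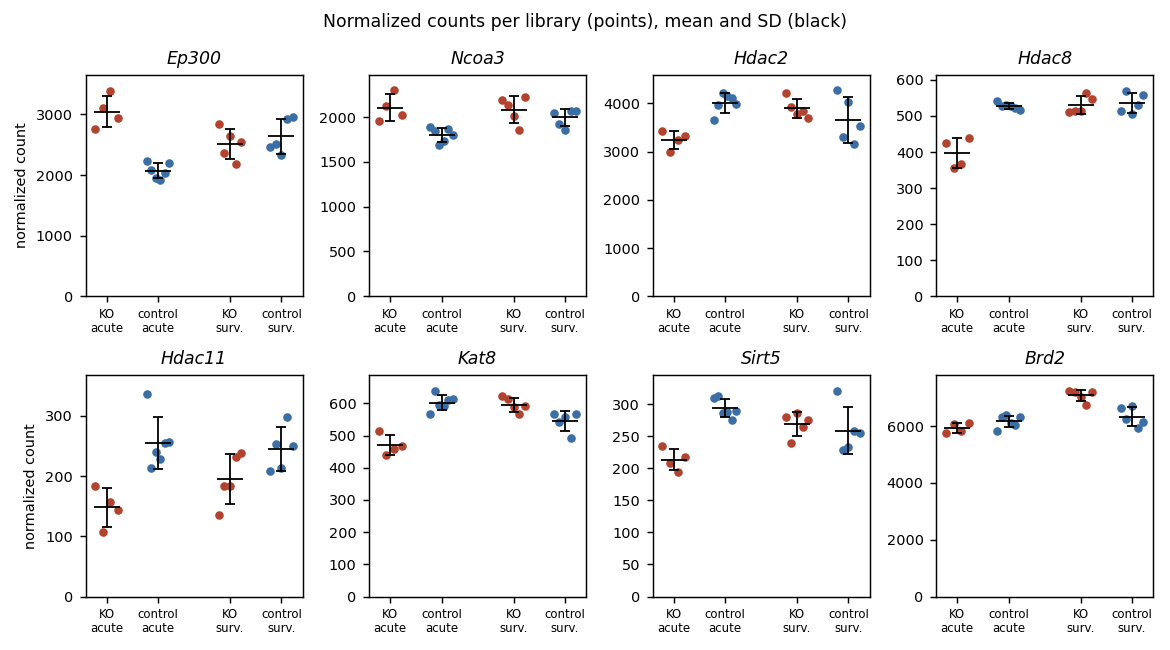
Normalized counts per library of 8 of the genes in the acute and survival arms, with KO (red) left of control (blue); black bars are the mean and the SD, and each axis starts at 0. For Ep300 and Ncoa3 all 4 acute KO libraries lie above the 6 controls; for Hdac2, Hdac8, Hdac11, Kat8 and Sirt5 they lie below under the deposited scaling shown, and with T-cell receptor beta scaling Hdac2 (0.062) and Kat8 (0.0081) turn slightly positive.

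Class IIa deacetylases shuttle between cytoplasm and nucleus and repress MEF2-driven genes. Hdac7, the member typical of thymocytes, was called lower in acute KO spleens under the deposited scaling, and stood at 0.087 with T-cell receptor beta scaling and at 0.055 with the other-cell score as a covariate, neither called. It had 8670.4, 6792, 8029.8 and 7283 in the 4 KO libraries, against a median of 9084 (8680.0 to 11059) in the 6 control libraries. The highest KO library lay just below the lowest control, control 1 stood above the other controls, and the log2 fold change was -0.28 (SE 0.0795, adjusted p = 0.0184). The call ended without KO 2 (-0.22, adjusted p = 0.062). Endpoint levels of Hdac7 were 8926, 9440.4, 8531, 8572 and 9801 in the KO libraries, against 8686, 8188, 8171, 8923 and 9833 in the control libraries. The groups overlapped, with a log2 fold change of 0.05 (SE 0.0637, adjusted p = 0.846).

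Hdac4 had 1457, 1363, 1253 and 1356 in the 4 KO libraries, against a median of 1375 (1295 to 1469) in the 6 control libraries in the acute arm. The ranges overlapped, with a log2 fold change of -0.02 (SE 0.0558, adjusted p = 0.802). Hdac4 at the endpoint had 1617, 1331, 1589, 1532 and 1500.1 in the KO libraries, against 1664, 1869, 1798, 1832 and 1880.2 in the control libraries. All 5 KO libraries lay below all 5 controls, as 0.793% of all genes did in that arm, and the log2 fold change was -0.26 (SE 0.0637, adjusted p = 0.241), so it was not called over all genes. Hdac5, a relative that also binds MEF2, was at -0.05 in the acute and 0.04 in the survival arm, and Hdac9 at 0.06 and -0.05; neither was called. The words of Hdac4 transcripts overlap those of the opposite-strand gene Gm26720 at 21.9%, which strand-specific libraries should keep apart; how strand was used in counting is not stated in the sources used here.

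Hdac11, the lone class IV deacetylase, which also removes long fatty acyl groups, had the widest acute fold change of the 34 genes. It had 184, 108, 156 and 143 in the 4 KO libraries, against a median of 247 (213 to 336) in the 6 control libraries. All KO libraries lay below all controls, and the log2 fold change was -0.79 (SE 0.158, adjusted p = 0.00288), 0.578-fold. It stood at the 1.82 percentile of the fold changes of all genes tested. Scaled to T-cell receptor beta genes it was -0.42 (adjusted p = 0.0626), and with the other-cell score as a covariate it turned to 0.17, neither called. Hdac11 in survival spleens had 136, 184, 184, 231 and 238 in the KO libraries, against 209, 253, 214, 298 and 249.8 in the control libraries. Only KO 1, KO 2 and KO 3 lay below the lowest control, and the log2 fold change was -0.34 (SE 0.157, adjusted p = 0.555). Hdac6, the cytoplasmic tubulin deacetylase, was not called, at 0.05 in the acute and -0.03 in the survival arm. Hdac10, a polyamine deacetylase, was at -0.21 (adjusted p = 0.094) and -0.01 (adjusted p = 0.995), and passed in the acute arm after quantile normalization (-0.44, adjusted p = 0.00464).

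Of the 6 sirtuins, Sirt5, the mitochondrial enzyme that removes succinyl and malonyl groups, was called lower in acute KO spleens. It had 234, 209, 194 and 217 in the 4 KO libraries, against a median of 288 (276 to 312) in the 6 control libraries. The groups did not overlap, and the log2 fold change was -0.46 (SE 0.0813, adjusted p = 0.00142). With T-cell receptor beta scaling it was -0.091 (adjusted p = 0.537), not called. Sirt5 levels in survival spleens were 279.7, 239, 286, 265 and 276 in the KO libraries, against 319.7, 228, 232, 258 and 255 in the control libraries. The groups overlapped, with a log2 fold change of 0.07 (SE 0.106, adjusted p = 0.884). Of the words of Sirt5 transcripts 16.3% are shared with other genes on the same strand, 8.96% with Wdr31, whose levels were 32.6 to 44.3 in acute KO spleens and 41.8 to 84.3 in acute controls. On the opposite strand 12.5% are shared, 7.74% with Gm47652, at 379 to 517 in acute KO spleens and 447.5 to 598 in acute controls. How strand was used in counting is not stated in the sources used here, so the Sirt5 counts may hold reads of other loci.

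Sirt1, the nuclear deacetylase of histones and p53, had 887, 823, 861 and 958 in the 4 KO libraries, against a median of 913 (739.8 to 968) in the 6 control libraries. The KO range lay within the control range, with a log2 fold change of -0.00 (SE 0.0835, adjusted p = 0.978). Endpoint levels of Sirt1 were 970.5, 995, 971, 855 and 981 in the KO libraries, against 858, 886, 934, 785 and 721 in the control libraries. KO 1, KO 2, KO 3 and KO 5 lay above all controls and KO 4 lay among them, and the log2 fold change of 0.19 (SE 0.0784, adjusted p = 0.488) did not pass over all genes. Sirt3, the main mitochondrial deacetylase, was at 0.09 (adjusted p = 0.692) in the acute arm and -0.24 (adjusted p = 0.548) in the survival arm. Sirt2, a cytoplasmic tubulin deacetylase, was at -0.08 and -0.06, Sirt6, a nuclear histone H3 deacetylase, at 0.01 and -0.01, and Sirt7, a nucleolar sirtuin, at 0.16 and -0.10, in the acute and the survival arm. None of these 4 was called.

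Neither BET reader was called in an arm. Brd2 had 5767, 6063, 5824 and 6117 in the 4 KO libraries, against a median of 6212 (5838 to 6383) in the 6 control libraries. The ranges overlapped, with a log2 fold change of -0.05 (SE 0.0401, adjusted p = 0.347). Survival levels of Brd2 were 7239, 7190.2, 7041, 6751 and 7213 in the KO libraries, against 6628, 6258, 6705, 5931 and 6158 in the control libraries. Every KO library lay above every control library there, as 1.21% of all genes did, and the log2 fold change of 0.16 (SE 0.05, adjusted p = 0.324) did not pass. Brd3, the other BET reader, ran over 4792 to 5155 in acute KO spleens and 4913 to 5332 in acute controls, a log2 fold change of -0.03 (adjusted p = 0.68). At the endpoint it ran over 4998 to 5801 in KO spleens and 5048 to 5802 in controls, a log2 fold change of -0.02 (adjusted p = 0.941).

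Over the survival arm as a whole, 0 of the 34 genes were called by limma, and 0.0124% of the 16136 genes tested were (2 genes, Acly among them, 0.0062% in each direction). At an unadjusted p under 0.05 there were 5 of the 34, namely Hdac4, Hdac11 and Sirt3 with negative fold changes and Brd2 and Sirt1 with positive ones, beside 8.74% of all genes. The groups did not overlap for 2 of the 34, Hdac4 and Brd2, beside 2.01% of all genes. The median log2 fold change of the 34 was 0.01, equal to that over all genes at this rounding, with 17 genes above 0 and 17 below.

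The fold changes of the arms were then compared in 1 fit over all 20 libraries, as the survival fold change minus the acute one. In that fit 9 of the 34 genes were called, 7 with a higher survival fold change and 2 with a lower one, beside 20.2% of the 15673 genes tested (9.39% higher and 10.9% lower). Kat8 stood at 0.13 in the survival arm and -0.36 in the acute arm, a difference of 0.49 (SE 0.0835, adjusted p = 0.000308). Ep300 stood at -0.07 in the survival arm and 0.56 in the acute arm, a difference of -0.62 (SE 0.111, adjusted p = 0.000449). Both pairs of fold changes were of opposite sign in the arms, and neither survival one was called. The differences were 0.52 (SE 0.129, adjusted p = 0.00694) for Sirt5, 0.40 (SE 0.0995, adjusted p = 0.00686) for Hdac2 and 0.40 (SE 0.0914, adjusted p = 0.00374) for Hdac8. They were 0.32 (SE 0.071, adjusted p = 0.00312) for Elp3 and 0.33 (SE 0.104, adjusted p = 0.0296) for Hdac7. With T-cell receptor beta scaling, those of Elp3 (-0.16), Hdac2 (-0.075), Hdac7 (-0.15), Hdac8 (-0.075) and Brd2 (-0.26) turned negative, with the median of all genes at -0.44. In that scaling the differences of Kat8 (0.011, limma adjusted p = 0.94) and Sirt5 (0.045, limma adjusted p = 0.816) were not called. With the other-cell score as a covariate that of Hdac7 turned negative (-0.035). None of the 9 was called in that fit, Ep300 standing at -0.36 (limma adjusted p = 0.845).

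Brd2 and Hdac4 were called in this comparison although neither was called in an arm. The differences were 0.22 (SE 0.059, adjusted p = 0.0131) for Brd2, which stood at 0.16 in the survival arm and -0.05 in the acute arm, and -0.24 (SE 0.0822, adjusted p = 0.0469) for Hdac4, which stood at -0.26 in the survival arm and -0.02 in the acute arm. Leaving out 1 library at a time ended the Hdac4 call in 14 of 20 fits, where the difference ran between -0.24 and -0.19. It ended the Hdac7 call in 6 of 20 fits, at 0.27 without acute KO 2 as the smallest, and no other of the 9. Without acute KO 2 and KO 3 together 3 of the 9 calls stood, those of Kat8, Ep300 and Elp3 (all genes, 2.44% higher and 5.61% lower). The other 6 kept their direction in this smaller fit, Brd2 at 0.22, Hdac4 at -0.29, Hdac2 at 0.35, Sirt5 at 0.44, Hdac7 at 0.28 and Hdac8 at 0.27, with adjusted p between 0.0611 and 0.154. Hdac3 was not called, with a difference of 0.17 (SE 0.0616, adjusted p = 0.0544), and passed without acute KO 1 (0.22) or survival control 5 (0.19).

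Ratios between related genes within a library stay nearly the same when 1 factor scales all genes of that library. This does not hold for quantile normalization, which does not move all genes alike. In each arm 9 pairs were compared by exact two-sided permutation tests on the deposited scaling, with p-values adjusted over the 18 tests. The part of other cell types in these ratios was not tested. In the acute arm the log2 ratio of Hdac2 to Hdac1 averaged -1.17 in KO libraries and -1.01 in controls, a difference of -0.16 (exact p = 0.00476, the smallest that 210 arrangements can give, adjusted p = 0.0429). The ratio of Kat6b to Kat6a averaged -2.27 in KO libraries and -2.06 in controls, a difference of -0.21 (exact p = 0.00476, adjusted p = 0.0429). For both pairs every KO library lay below every control. Ep300 to Crebbp averaged 0.72 in KO libraries and 0.35 in controls, a difference of 0.37 with all KO libraries above all controls, yet it did not pass after adjustment (exact p = 0.00952, adjusted p = 0.0571).

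The other acute pairs overlapped between groups, among them Hdac9 to Hdac7 (0.34, exact permutation, adjusted p = 0.114) and Hdac10 to Hdac6 (-0.26, adjusted p = 0.171). In the survival arm none of the 9 ratios passed. Brd3 to Brd2 was at -0.18 (exact permutation, adjusted p = 0.114) and Hdac5 to Hdac4 at 0.30 (adjusted p = 0.171). The Hdac2 to Hdac1 ratio was at 0.10 there and Ep300 to Crebbp at 0.03, neither past the threshold.

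**Figure D3:**
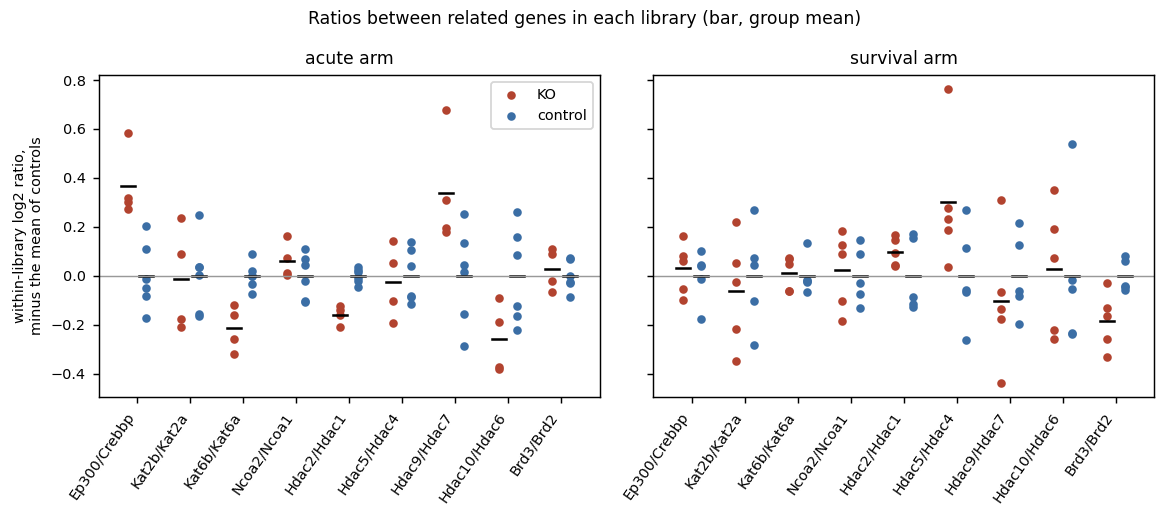
Within-library log2 ratio of 9 pairs of related genes, less the mean of the control libraries of the arm, for KO (red, left) and control (blue, right) libraries; bars are group means. In the acute arm the KO libraries lie apart from all controls for Ep300 to Crebbp (above), Kat6b to Kat6a (below) and Hdac2 to Hdac1 (below).

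The acute KO libraries also differed in their content of other cells, given here beside the gene levels. All 4 KO libraries had higher scores than all 6 controls, so score and genotype were separated in the same way in these 10 libraries. KO 2, which had the highest score (1.85), also had the lowest Hdac2, Hdac8 and Hdac11 levels of all acute libraries, and KO 3 (1.54) had the highest Ep300 level. KO 1, with the lowest score among KO libraries (0.640), had the lowest Ep300 level and the highest Hdac2 and Hdac11 levels among them, while the highest Hdac8 level among them was that of KO 4. Control 1, with the lowest score of the 10 libraries (-1.16), did not follow that order for Ep300 and Hdac2. It had the highest Ep300 (2226) and the lowest Hdac2 (3647) level among controls. Its Hdac8 and Hdac11 levels were the highest among controls, a low score beside high levels as in the KO libraries. The part of other cells in the gene levels was not tested within the groups.

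**Figure D4:**
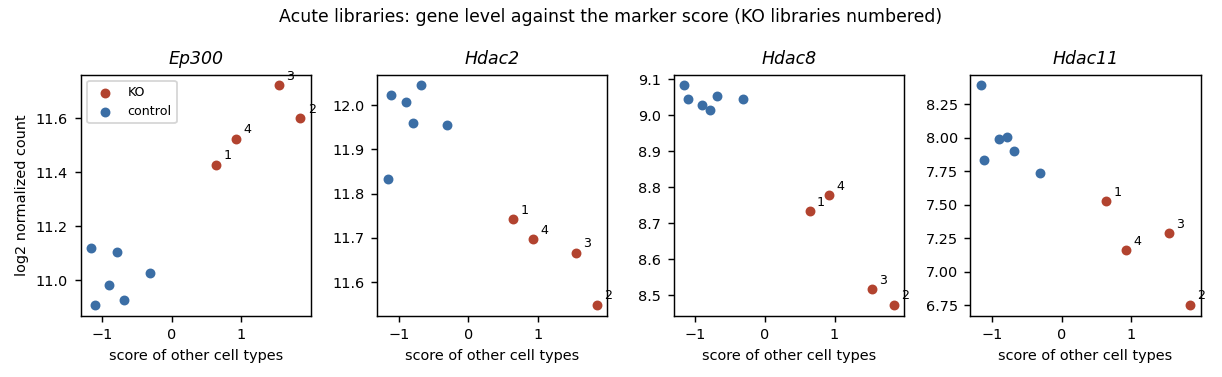
Log2 normalized count of Ep300, Hdac2, Hdac8 and Hdac11 in the 10 acute libraries against the other-cell score (mean centred log2 level of 69 markers), for KO (red, numbered) and control (blue) libraries. The KO libraries, at scores of 0.640 to 1.85, and the controls, at -1.16 to -0.309, occupy separate corners in each panel.

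**Figure D5:**
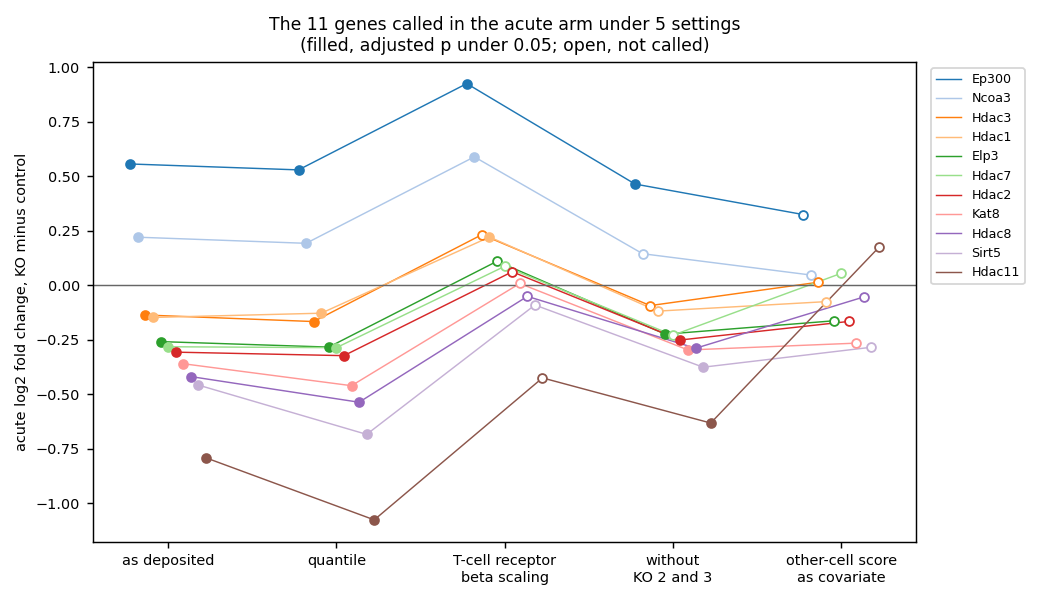
Acute log2 fold change (KO minus control) of the 11 called genes under 5 settings: as deposited, quantile normalization, scaling to T-cell receptor beta genes, without KO 2 and KO 3, and with the other-cell score as a covariate; filled points passed an adjusted p under 0.05. With T-cell receptor beta scaling Ep300 (0.92), Ncoa3 (0.59) and Hdac1 (0.22) are filled, and with the covariate no point is filled.

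Beyond the 34 enzymes and readers, the partner subunits of their complexes moved in both directions in the acute arm. Of 36 subunits of deacetylase complexes, 6 were called higher and 5 lower, with a median log2 fold change of 0.03. The highest were Sap30, a Sin3 subunit (0.35, adjusted p = 0.0431), Mideas (0.30) and Arid4a (0.24), and the lowest were Rcor2, a CoREST subunit (-0.57, adjusted p = 0.00162), Mbd3, a NuRD subunit (-0.20), and Tbl1x, an NCoR subunit (-0.19). Of 41 subunits of acetyltransferase complexes, 4 were called higher and 6 lower, with a median of -0.09. Ep400 (0.26, adjusted p = 0.00972) and Trrap (0.25) of the NuA4 complex and Tada3 (0.25) of SAGA were higher, and Tada2a (-0.38, adjusted p = 0.00188), Elp4 of Elongator (-0.30) and Taf5l (-0.24) were lower. With T-cell receptor beta scaling 26 of the 36 and 22 of the 41 were called higher and 0 lower. Without KO 2 they were 2 higher and 2 lower of the 36, and 4 higher and 3 lower of the 41, and without KO 3 they were 2 higher and 4 lower, and 1 higher and 3 lower. The shares called stand beside 16.7% higher and 14.7% lower over all genes as deposited, 42.5% and 0.593% with T-cell receptor beta scaling, 13.2% and 9.38% without KO 2, and 13% and 10% without KO 3.

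Of 28 other bromodomain and YEATS readers, 4 were called higher and 2 lower in acute KO spleens, beside 16.7% higher and 14.7% lower over all genes. Sp140, a reader of immune cells, was higher (0.64, adjusted p = 0.00373), as were Baz1a (0.40) and Baz2b (0.27), while Brd7 (-0.24) and Sp110 (-0.18) were lower under the deposited scaling. Of 16 genes of acetyl-CoA and NAD supply, 4 were called higher and 7 lower, with a median of -0.12, beside the same shares of all genes. Cd38, an NAD-consuming surface enzyme of B and other immune cells, averaged 251 ± 87.3 normalized counts in KO spleens and 62.6 ± 10.1 in controls (SD, n = 4 and 6), a log2 fold change of 1.93 (SE 0.225, limma adjusted p = 9.52e-05), in libraries where all 12 B-cell markers were higher too; their part in this result was not tested. Crat, which makes acetyl-carnitine (0.62), and Acss1, the mitochondrial acetyl-CoA synthetase (0.60), were higher, and Acly (-0.46), Pdha1 of pyruvate dehydrogenase (-0.29) and Acss2, the cytosolic and nuclear acetyl-CoA synthetase (-0.26), were lower. With T-cell receptor beta scaling 0 genes of either list were called lower (all genes, 0.593%). Without KO 2 or without KO 3 the supply genes called lower were 4 (all genes, 9.38% and 10%). In the survival arm Acly was the only gene of the 4 lists that was called.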

How the data were processed

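The authors deposited 2 tables of DESeq-normalized counts, a scaled signal and not raw reads, with 1 column per library and 1 table per arm. Per the submitters' processing notes, kallisto 0.46.0, the build GRCm39 and DESeq were used; the annotation, strand setting, gene-level summary and filters are not stated in the sources used here. Libraries were strand-specific and made from polyadenylated RNA, per the labels' protocols. Depth in reads is unknown, so count models were not run and no counting interval is given. The 2 tables were scaled separately, so levels are compared within a table only, and levels are not compared between genes because lengths were not used. No pair of libraries held identical values.

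The deposited values were put on a log2 scale after adding 1, and group means were fitted by limma 3.58.1 under R 4.3.3, using lmFit and a moderated test with a mean-variance trend. Testing was limited to genes whose value reached 10 in 4 or more acute libraries (16363 genes) or 5 or more survival libraries (16136 genes). Two-sided p-values received a Benjamini-Hochberg adjustment across every gene tested, and calls were made under 0.05. The arms were compared in 1 fit over all 20 libraries on the 15673 genes tested in both. The fit was checked on simulated data. Paralog ratios and Acly were compared by exact permutation tests; for Acly the p was 0.00476 in the acute arm and 0.00794 in the survival arm, the smallest each design can give. Shared 31-base words were counted in GENCODE transcripts of GRCm38, another build than the authors used. Python 3.11.15, numpy 2.4.6, pandas 2.3.3 and matplotlib 3.10.9 were used.

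The genes, the 4 related lists, the 10 marker lists, the tests and the alternatives were chosen with earlier results of these data known. Library values, with the acute controls as a median and a range, are given for members called in the difference between arms, for the 6 largest rises and 6 largest falls among members called in the acute arm, and for 8 members of central role. For related lists the 3 largest rises and falls among called genes with a mean of at least 50 are named. Alternatives were other pseudocounts, filters and scalings, no trend, 1 joint fit, a covariate for other cell types, a replicate block, and leaving libraries out.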

Additional observations from a re-analysis of the deposited data

Results flagged for a closer look

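The fold changes of 9 of the 34 genes and of Acly differed between the arms by the joint limma fit. Of the 15673 genes tested there, 20.2% did. Leaving out 1 library at a time ended the Hdac4 call in 14 of 20 fits and the Hdac7 call in 6. For Acly the survival fold change minus the acute one was -0.92, for Ep300 -0.62 and for Hdac4 -0.24. For Sirt5 it was 0.52, for Kat8 0.49, for Hdac2 0.40, for Hdac8 0.40, for Hdac7 0.33, for Elp3 0.32 and for Brd2 0.22.

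In 10 of 140 groups of 4 to 6 libraries, 1 library stood apart from the rest by Dixon's criterion, beside about 5 per 100 groups that chance flags. Acute KO 1 was high for Elp3 (2184 normalized counts, against 1935 to 1965 in the other KO libraries) and for Hdac3 (2064, against 1790.0 to 1824). Acute KO 4 was low for Sirt2 (1289, against 1465 to 1501). Acute control 1 was low for Hat1 (2372, against 2629 to 2778 in the other controls) and high for Kat6b (1074, against 928 to 961) and for Hdac7 (11059, against 8680.0 to 9299). Acute control 5 was low for Elp3 (2230, against 2397 to 2479). In the survival arm, KO 5 was high for Ncoa1 (1755, against 1399.7 to 1451), KO 4 was low for Sirt1 (855, against 970 to 995), and control 4 was low for Brd3 (5048, against 5575 to 5802).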

How the results depend on the processing

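Under pseudocounts of 0.5 and 5, a filter at 50 and 1 fit over all libraries, the acute counts stayed at 2 of the 34 genes higher and 9 lower, and no setting called any of the 34 in the survival arm. In these fits, in that order, 16.6%, 16.9%, 19.2% and 16% of all genes were called higher in the acute arm. Called lower were 14.7%, 14.7%, 20.8% and 15%. Scaled to T-cell receptor beta genes, the acute counts were 18 higher and 0 lower (all genes, 42.5% and 0.593%). Those of the difference between arms were 0 higher and 22 lower (all genes, 0.37% and 46.3%). With the other-cell score as a covariate, all 4 counts were 0 (all genes, 0% in the acute arm, and 0.00638% higher and 0% lower for the difference). Without acute KO 2 and KO 3 they were 1 higher and 6 lower in the acute arm (all genes, 8.64% and 4.42%), and 2 higher and 1 lower for the difference (all genes, 2.44% and 5.61%). The count lower for the difference was also 1 with no filter, with quantile normalization and with no trend (all genes, 7.45%, 9.85% and 10.3%). It was 1 to 2 when libraries were left out in turn (all genes, 8.7% to 12.1%). Leaving out 1 library gave 2 to 3 higher and 6 to 9 lower in the acute arm (all genes, 13% to 17.8% higher and 9.38% to 15.4% lower). The 6 came without KO 2, where 9.38% of all genes were called lower, against 14.7% with all libraries.

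Same-numbered KO and control libraries correlated at -0.0662 to 0.142 in the acute arm and -0.0204 to 0.128 in the survival arm. The best-matching control of each KO library reached 0.0936 to 0.2 in the acute arm and 0.0706 to 0.209 in the survival arm. Such low values cannot settle whether the replicate numbers pair the libraries, and the main fits did not treat them as pairs. With the replicate number as a block, 1 gene was higher and 7 lower in the acute arm, and 6 higher and 1 lower for the difference (all genes, 12.9% higher and 7.25% lower in the acute arm, 6.12% and 8.96% for the difference).

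Acly in the acute arm was no longer called with T-cell receptor beta scaling (-0.089) or with the covariate (-0.80), nor was its difference between arms with the covariate (-0.47).

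With T-cell receptor beta scaling the sign turned in the acute arm for 18 of the 34 genes, 12 of them called with or without it, namely Elp3 (0.11), Kat5 (0.31), Kat8 (0.0081), Ncoa1 (0.34), Hdac1 (0.22), Hdac2 (0.062), Hdac3 (0.23), Hdac4 (0.35), Hdac7 (0.087), Sirt1 (0.36), Brd2 (0.31) and Brd3 (0.34); the other 6 were called in neither fit. By construction this setting moves every gene up in acute KO libraries by the shortfall of their T-cell receptor beta sum. Survival KO libraries had the higher sum, by 0.11 on the log2 scale, so genes moved down there (median of all genes -0.10). For the difference between arms this scaling also turned 18 signs, 12 of them of genes called with or without it, namely Hat1 (-0.38), Elp3 (-0.16), Kat6b (-0.32), Hdac1 (-0.33), Hdac2 (-0.075), Hdac3 (-0.31), Hdac8 (-0.075), Hdac7 (-0.15), Sirt1 (-0.28), Sirt2 (-0.46), Brd2 (-0.26) and Brd3 (-0.47). With the covariate the sign turned in the acute arm for 13 of the 34, of which Hdac3 (0.014), Hdac7 (0.055) and Hdac11 (0.17) had been called without it, and for the difference of 7, of which Hdac7 (-0.035) had been called; the cause was not tested.

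When libraries were left out in turn, the acute ratio differences ran between -0.17 and -0.14 for Hdac2 to Hdac1 and between -0.25 and -0.18 for Kat6b to Kat6a, and both lost the adjusted threshold in 9 of 10 fits, where fewer arrangements exist. Ep300 to Crebbp ran between 0.30 and 0.41, and Brd3 to Brd2 in the survival arm between -0.22 and -0.15; each passed in 1 of 10 fits.

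Limits: depth in reads is unknown, genes at low counts are the least precise, and KO and other-cell content separate the acute libraries in the same way.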
